A study of Arabidopsis thaliana with 4 samples.

Results

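Cells in G2 or mitosis were picked out of single-cell RNA profiles of Arabidopsis thaliana root tips that were recovering from a cut. A cell counted as a member when it held at least 1 transcript molecule (counted by its unique molecular identifier, UMI) of at least 4 of 9 genes that act in G2 and mitosis. These 9 rule genes were the cyclins CYCB1;1, CYCB1;2 and CYCB1;3, the kinases CDKB2;1, CDKB2;2 and AUR1, the syntaxin KNOLLE, the ubiquitin ligase activator CDC20.1 and the spindle factor TPX2. The rule found 94 of 10529 cells, which is 0.893%. There were 14 members in replicate 1 and 25 in replicate 2 of the mutant, against 6 in replicate 1 and 49 in replicate 2 of WT.

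The mutant was the quadruple lbd6 lbd36 lbd12 lbd15, which lacks 4 genes of the plant-specific LATERAL ORGAN BOUNDARIES DOMAIN transcription factor family, and it was set against WT. Plants of both genotypes were 7 days old when the root tip was cut off with a needle, and they recovered for 16 h before about the last centimetre of the primary root was taken. Cell walls were digested, so the profiles are of protoplasts, and droplet libraries were made that read the 3′ end of each transcript. Each genotype had 2 libraries, and the sources used here do not say whether these came from separate plantings. Any p-value below therefore measures the spread between these libraries, which may be technical. The comparison asks how cells of a root that is rebuilding its tip differ when these LBD genes are mutated.

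Plant cells enter mitosis when B-type cyclins bind plant-specific B2-type cyclin-dependent kinases. The genes of this stage are switched on together, largely by MYB3R transcription factors that bind a short promoter element with the core AACGG. Cell division then ends on the phragmoplast, a plant structure of microtubules and kinesins that steers vesicles carrying KNOLLE into the new cell plate. In a root, division is concentrated in the meristem near the tip, the region that regrows after the tip is cut.

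The libraries held 846 and 2876 cells in the mutant, against 1746 and 5061 in WT. Mutant replicate 1 stood apart in depth, with a median of 6305 UMIs in cells that were not members, against 2499 in mutant replicate 2, 2436 in WT replicate 1 and 2049.5 in WT replicate 2. Members were deeper, with median UMIs of 8234.5 and 9171 in the mutant and 14126 and 7851 in WT. A rule that counts detected genes favours deep cells, so members were also set against other cells of at least 5000 UMIs, whose medians ran from 9264.5 to 11076.5 UMIs. There were 9 barcodes that occurred in 2 libraries, and no member carried one. No doublet caller was run, and 18 of the 94 members had at least 15000 UMIs.

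Levels below are mean UMIs per 10000 UMIs of a cell, averaged over the cells of a library. KNOLLE, which drives membrane fusion at the cell plate, was the rule gene found in most members, 81 of 94. Its level in members was 12.9 and 2.58 in the mutant, against 2.94 and 3.36 in WT. Mutant replicate 1 was high and the other 3 libraries lay close together. AUR1, an Aurora kinase of the spindle, was found in 64 members, at 4.77 and 1.62 in the mutant and 1.33 and 1.42 in WT. CYCB1;3 was found in 60 members, at 2.15 and 1.55 in the mutant and 1.89 and 1.54 in WT. These B-cyclin values differed little between libraries.

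CDKB2;2 was found in 58 members and TPX2 in 57. CDKB2;2 lay at 3.27 and 1.73 in mutant members, against 0.919 and 1.37 in WT members. Both mutant libraries were thus above both WT libraries, as they were for 12.1% of the 2815 genes tested between genotypes. CDKB2;2 did not pass that test (limma adjusted p = 0.999). CYCB1;2 and CDKB2;1 were each found in 49 members. The anaphase activator CDC20.1 was found in 33 members, at 3.18 and 0.406 in the mutant and 0.287 and 1.75 in WT, and here the spread within a genotype exceeded any difference between genotypes. CYCB1;1, the cyclin often used to mark dividing root cells, was found in only 32 members, at 0.575 and 0.410 in the mutant and 0.123 and 0.633 in WT.

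Few members carried the full set of transcripts. Of the 94 members, 38 had exactly 4 rule genes, 26 had 5, 14 had 6, 12 had 7, 3 had 8 and 1 had all 9. Just outside the threshold were 71 cells with 3 rule genes and 139 with 2, and 9302 cells had none. Since the rule chose the cells on these genes, these values describe the choice. In other cells of at least 5000 UMIs, KNOLLE was found in 2.78%, CYCB1;3 in 0.829% and AUR1 in 8.26%.

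The label was checked against 53 other G2 and mitosis genes that the rule did not use, although the cells were still chosen by a related readout. Their summed level in members averaged 70.7 and 35.5 UMIs per 10000 in the mutant and 38.2 and 32.4 in WT, while other cells averaged between 3.41 and 4.53. By cell, the median over the pooled libraries rose stepwise with the number of rule genes. It was 1.23 in cells with none, 3.90 with 1, 8.81 with 2, 20.9 with 3, 27.0 with 4, 31.9 with 5 and 40.2 with 6 or more. Cells with 3 rule genes thus lay nearer to members than to cells with none.

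**Figure D1:**
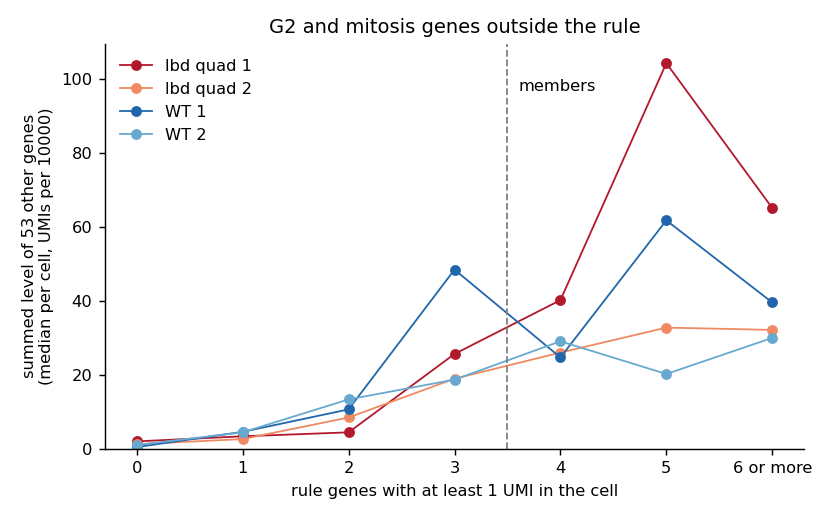
Median summed level per cell of 53 G2 and mitosis genes outside the rule (UMIs per 10000) against the number of rule genes found in the cell, 1 line per library, with members right of the dashed line. The median over all cells was 1.23 with no rule gene and 40.2 with 6 or more. No single library rises at each step among members, and WT replicate 1 has only 6 members and 6 cells with 3 rule genes.

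Members were compared with the other cells of their library gene by gene. Among 2232 genes with a level of at least 1 in members or in other cells, 60 genes (2.69%) were at least 2-fold higher in members in all 4 libraries and 249 (11.2%) were at least 2-fold lower, on the log2(value + 0.5) scale. The median log2 ratio over these genes was -0.41. These counts describe the choice of cells and carry no test. Against the deep other cells the counts were 75 and 190, and every one of the 15 leading and 5 low genes named here was still past 2-fold.

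3xHMG-box2, which encodes a high-mobility-group protein that binds mitotic chromosomes, came first when genes were ordered by their lowest log2 ratio of members to other cells over the 4 libraries, the order used here. By the median ratio ENODL15 was higher, at 3.89 against 3.47. The level of 3xHMG-box2 in members was 12.0 and 9.55 in the mutant and 8.21 and 7.57 in WT, and in other cells it lay between 0.241 and 0.426. It was found in 90.4% of members, against 8.33% of the deep other cells. UBC20, a ubiquitin-conjugating enzyme, was found in 98.9% of members and in 23.6% of deep other cells. It lay at 25.4 and 6.97 in mutant members and at 9.25 and 6.36 in WT members. TOPII, the topoisomerase that untangles sister DNAs, lay at 2.00 and 1.19 in mutant members and at 2.42 and 1.42 in WT members.

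The early nodulin-like protein genes ENODL15 and ENODL14 were also among the leaders. ENODL15 lay at 20.0 and 13.0 in mutant members, against 8.25 and 6.33 in WT members. Both mutant libraries thus lay above both WT libraries, as for 12.1% of all genes tested between genotypes. ENODL14 lay at 14.0 and 2.49 in mutant members and at 3.04 and 3.18 in WT members. AT5G16250, which encodes an uncharacterized protein, varied widely, at 35.4 and 5.19 in mutant members and 10.2 and 4.07 in WT members, while other cells stayed between 0.163 and 0.515. The remaining leaders were IMPA-6, an importin alpha isoform, AT3G51720, a WEB family protein, AT4G15830, an ARM repeat protein, AT5G55520, annotated as kinesin-like, AT3G03130, AT5G17160, AT3G02120, AT3G52110 and AT4G01730. Their levels in members, averaged over the 4 libraries, ran from 1.47 for AT5G55520 to 6.98 for AT3G02120.

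The MYB3R core AACGG was looked for, on both strands (CCGTT on the other), in the 250 bases before the annotated start of each gene in RefSeq's TAIR10.1 assembly; matches on the 2 strands cannot overlap. Of 20510 windows, 21.8% held at least 1 match and 4.01% held 2 or more. Among the 15 leading genes 11 windows (73.3%) held a match and 5 (33.3%) held 2 or more. For the 9 rule genes 7 windows (77.8%) held one. Of the 60 genes higher in members 50.0% held one, and of the 249 lower genes 14.5%. A match is a run of letters and not a shown binding site. The windows below are those of 2 rule genes and 1 leading gene, shown because they carry the matches in different numbers and places; capitals mark the matches, and each sequence runs 5′ to 3′ towards the gene.
CYCB1;2, chr5:1861704-1861953, minus strand: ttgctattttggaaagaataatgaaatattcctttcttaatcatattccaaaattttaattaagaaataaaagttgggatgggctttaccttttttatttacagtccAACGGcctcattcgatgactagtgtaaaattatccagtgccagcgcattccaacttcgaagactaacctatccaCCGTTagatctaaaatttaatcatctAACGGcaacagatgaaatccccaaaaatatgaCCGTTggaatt
KNOLLE, chr1:2711001-2711250, minus strand: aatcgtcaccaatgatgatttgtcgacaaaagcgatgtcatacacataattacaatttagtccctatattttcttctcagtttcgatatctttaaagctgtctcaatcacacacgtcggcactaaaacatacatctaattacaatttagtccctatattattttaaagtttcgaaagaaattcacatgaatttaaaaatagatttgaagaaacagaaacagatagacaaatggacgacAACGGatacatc
AT5G16250, chr5:5310952-5311201, minus strand: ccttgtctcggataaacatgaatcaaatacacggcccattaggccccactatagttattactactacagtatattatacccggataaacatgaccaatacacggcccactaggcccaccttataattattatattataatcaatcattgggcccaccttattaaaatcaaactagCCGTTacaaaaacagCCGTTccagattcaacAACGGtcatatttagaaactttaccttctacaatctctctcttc

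CYCB1;2 held 4 matches, whose first bases lay 143, 69, 43 and 11 bases before the start. In KNOLLE the single match began 12 bases before it. AT5G16250 held 3 between 75 and 44 bases before the start. The 22 S phase histone genes, which are not G2 genes, held a match in 63.6% of their windows, so the letters were not particular to genes of mitosis.

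The 5 genes lowest in members relative to other cells included a pair of arabinogalactan protein genes. BGLU34, a beta-glucosidase, had no UMI in any member, while other cells averaged from 6.74 to 21.6 UMIs per 10000. A count of 0 of 94 allows a share of up to 3.19%, and BGLU34 was found in 4.18% of deep other cells. AGP14 and AGP13, arabinogalactan proteins of the cell surface, were found in 8.51% and 6.38% of members, against 47.1% and 39.7% of deep other cells. GASA1, a gibberellin-regulated peptide gene, was found in 4.26% of members and 26.9% of deep other cells. AT4G12520, which encodes a protein of the lipid-transfer superfamily, was found in 10.6% of members and 36.3% of deep other cells.

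**Figure D2:**
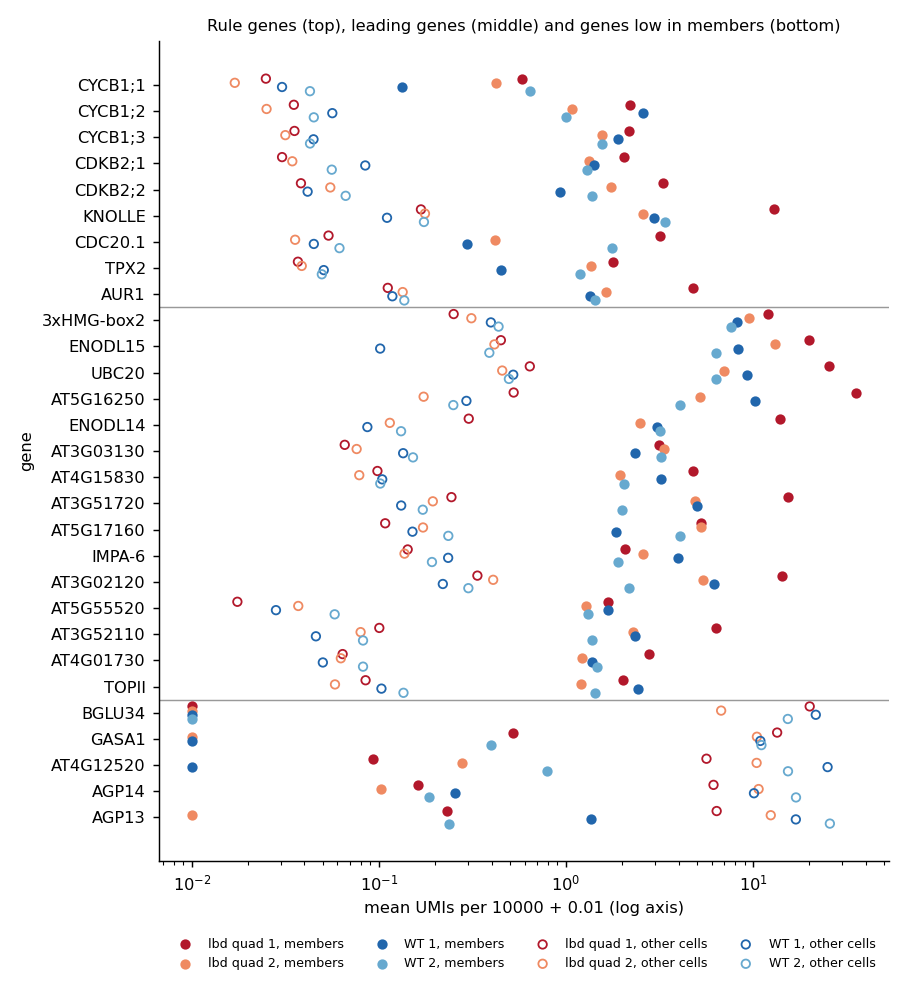
Mean level (UMIs per 10000 + 0.01, log axis) of the 9 rule genes, the 15 leading genes and the 5 low genes, with filled points for members and open points for other cells, 1 colour per library. Filled and open points do not overlap for any gene shown; for BGLU34 all 4 filled points sit at 0.

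The mitotic machinery was described by lists of genes set out by role. In the cyclin and kinase list, CKS2, a small CDK-binding subunit, lay at 3.08 and 0.525 in mutant members and at 2.60 and 0.592 in WT members. CYCB1;4 lay at 3.90 and 0.529 in mutant members and at 0.944 and 0.401 in WT members, and CYCA1;1, an A-type cyclin, at 1.00 and 0.910 in the mutant and 1.37 and 0.368 in WT. Of the 15 genes, 7 were higher in members in all 4 libraries and 8 were not. CKS1 was among the 8, found in 55.3% of members and 52.2% of deep other cells, and so was CYCA2;3, found in 4.26% and 3.64%. Of the 2 genes of this list that reached a level of 1, none was past 2-fold in all 4 libraries.

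Among spindle checkpoint and anaphase genes, PANS1, which guards the cohesion of sister chromatids, lay at 5.36 and 1.26 in mutant members and at 0.870 and 1.17 in WT members. The checkpoint gene MAD2 lay at 2.75 and 0.185 in mutant members, against 0.263 and 0.538 in WT members, so that mutant replicate 1 alone stood out. CCS52B, an activator of the anaphase-promoting complex, was found in 31.9% of members and 1.98% of deep other cells, and BUB3.1 in 43.6% and 8.52%. Of the 11 genes of this list, 7 were higher in members in all 4 libraries, 2 were lower in all 4 and 2 were mixed. The 2 lower genes were CCS52A1, found in 1.06% of members and 3.64% of deep other cells, and CCS52A2, in 0% and 0.893%. The chromosome list held the second Aurora kinase AUR2, at 2.86 and 0.673 in mutant members and 0.808 and 1.20 in WT members, and 3xHMG-box1, found in 42.6% of members. Of the 10 chromosome genes, 6 were higher in members in all 4 libraries and 4 were mixed. All 3 genes of this list that reached a level of 1 were at least 2-fold higher in all libraries.

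Of the 17 phragmoplast genes, 16 were higher in members in all 4 libraries and 1 was lower in all 4. The lower gene was KEULE, found in 11.7% of members and 23.96% of deep other cells. Its log2 ratio of members to other cells ran from -0.65 to -0.007 over the libraries. All 5 genes of this list that reached a level of 1 were at least 2-fold higher in members in all 4 libraries. ATK5, a minus-end kinesin of the spindle, lay at 4.46 and 1.22 in mutant members and 2.18 and 1.19 in WT members. RSW7, a kinesin-5, lay at 2.03 and 1.16 in the mutant and at 2.56 and 1.38 in WT. PAKRP2, a phragmoplast kinesin, was found in 57.4% of members and 1.37% of deep other cells. HINKEL, the kinesin that starts phragmoplast expansion, was found in 59.6% of members and 5.26% of deep other cells.

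Of 15 regulators of G2 and mitosis, 2 were higher in members in all 4 libraries, 8 were lower in all 4 and 5 were mixed. SCL28, a GRAS factor that acts at G2 and mitosis, lay at 1.24 and 0.679 in mutant members and 0.733 and 0.583 in WT members, and between 0.00530 and 0.0340 in other cells. MYB3R4, an activator of the AACGG genes, lay at 0.222 and 0.0798 in mutant members and 0.251 and 0.354 in WT members. Its relative MYB3R1 was mixed, with a median log2 ratio of -0.03. The CDK inhibitor SIM, which drives cells from mitosis into endoreplication, was at 0.144 and 0 in mutant members and 0 and 0.115 in WT members, while other cells held between 0.791 and 1.28. SIM was found in 6.38% of members, against 44.4% of deep other cells. Its relative SMR1 was found in 8.51% against 27.1%, and KRP2, an inhibitor of another family, in 3.19% against 24.6%. Not all inhibitors were lower, since KRP7 was found in 10.6% against 7.69%.

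Nucleolar genes, which serve ribosome assembly, lay higher in members than in other cells of every library. Their 6 genes summed to 25.8 and 38.4 in mutant members and 30.9 and 34.5 in WT members, against 11.05 and 7.83 in other mutant cells and 6.56 and 7.22 in other WT cells. NUC1, a nucleolin, lay at 7.39 and 7.10 in mutant members and 6.33 and 7.05 in WT members, an even level over all libraries. FIB2, a fibrillarin, was found in 91.5% of members and 34.2% of deep other cells, FIB1 in 89.4% and 46.9%, and NOP56 in 89.4% and 38.2%. The replication list summed to 4.11 and 4.44 in mutant members and 8.80 and 5.03 in WT members, against 2.93 and 4.40 in other mutant cells and 2.03 and 3.46 in other WT cells. The sums were thus near equal in mutant replicate 2 and furthest apart in WT replicate 1, and none of the 20 genes was higher in members in all 4 libraries. TSO2, a subunit of ribonucleotide reductase, made up much of it. PCNA1 and PCNA2, the sliding clamps of DNA polymerase, were found in 36.2% and 29.8% of members, against 25.3% each of deep other cells. CDT1A, a replication licensing factor, was found in 16.0% against 10.5%.

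CYCD3;2, a D-type cyclin of the G1 to S step, was found in 43.6% of members and 28.7% of deep other cells, while CDKA;1, the kinase used throughout the cycle, was found in 30.9% and 42.1%. DNA damage genes were at low levels, with sums of 0.359 and 0.729 in mutant members and 0.299 and 0.576 in WT members, near those of other cells. The wound list summed to 3.03 and 1.87 in mutant members and 3.26 and 1.46 in WT members, below the 7.19 and 3.99 of other mutant cells and the 5.36 and 2.77 of other WT cells. ERF109, a wound-induced transcription factor, was found in 24.5% of members and 42.4% of deep other cells, WIND2 in 22.3% and 33.8%, and WRKY33 in 12.8% and 24.8%. Of the 10 wound genes, 6 were lower in members in all 4 libraries and 4 were mixed. ERF114 was mixed, at 0 and 0.163 in mutant members and 1.59 and 0.136 in WT members. Other cells held 0.285 and 0.213 of it in the mutant and 0.116 and 0.0694 in WT.

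**Figure D3:**
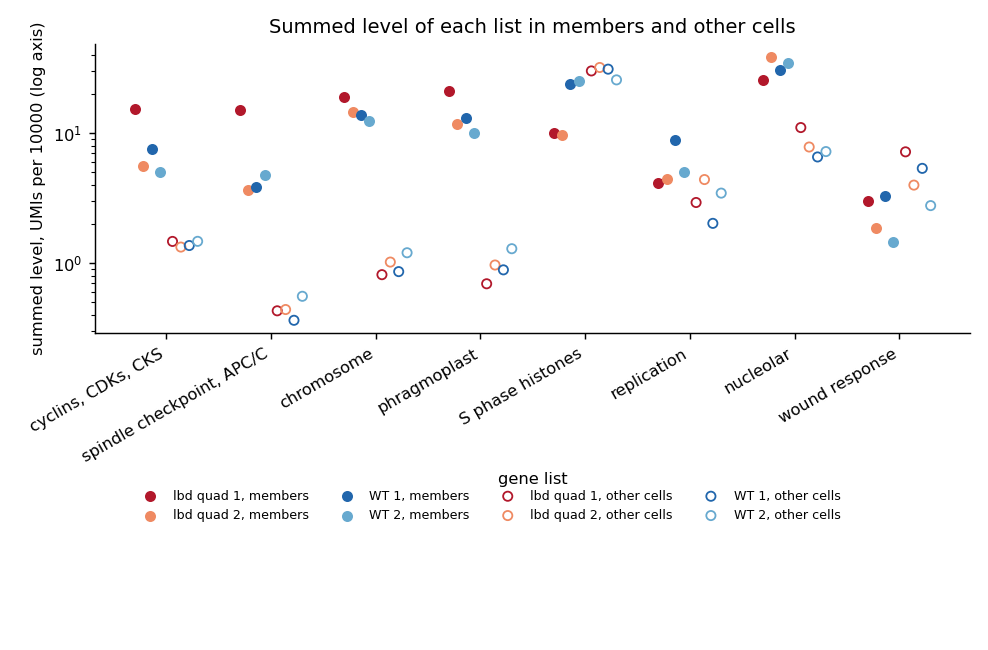
Summed level of each gene list (UMIs per 10000, log axis) in members (filled) and in other cells (open), 1 colour per library. The 4 mitotic lists and the nucleolar list lie higher in members in every library, while the S phase histones and the wound list lie lower. For the histones the gap is small in WT replicate 2, with 25.03 in members and 25.70 in other cells.

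Markers of root cell types were looked for in members. Of 65 markers of root cell types, 26 had no UMI in any member, among them 9 of 10 xylem markers and 5 of 9 endodermis markers. The remaining xylem marker, ACL5, went the other way, found in 7.45% of members and 2.97% of deep other cells. The Casparian strip genes CASP1, CASP2 and CASP5 and the xylem protease XCP1 were at 0. Most of these genes were found in fewer than 3.19% of deep other cells, the share that 0 of 94 allows, so single genes are at the limit of what this number of cells can show. The phloem transporter SUC2 (4.82% of deep other cells) and the xylem protease XCP2 (4.21%) were above that limit. So were the pericycle marker LBD16 (4.47%), the xylem marker T5L1 (3.96%) and the root cap marker BRN2 (3.83%). Several tissue regulators were found in members at shares near those of deep other cells. SCR, a ground tissue regulator, was found in 12.8% of members and 11.5% of deep other cells, the stem cell factor PLT3 in 11.7% and 8.58%, OPS of the protophloem in 8.51% and 6.63%, and WER of the epidermis in 8.51% and 6.03%. The ground tissue factor MGP was found in 12.8% of members and 3.48% of deep other cells, and WOX5, which marks the quiescent centre, in 4.26% and 2.01%. From the same stem cell niche list as WOX5, BBM was found in 7.45% and 3.16%, while PLT2 was found in 0% and 1.28%. Others were found less in members, such as AGL42 in 11.7% against 19.9%, the cytokinin receptor AHK4 in 2.13% against 17.3% and JKD in 6.38% against 7.56%. In the phloem list that held OPS, APL was found in 1.06% against 6.54% and BAM3 in 7.45% against 9.19%. In the non-hair list that held WER, MYB23 was found in 3.19% against 8.55%, GL2 in 2.13% against 3.80% and TTG2 in 2.13% against 1.95%. MYB36, listed with SCR, was found in 2.13% against 8.07%.

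At least 2 markers of a class were found in few members. Of the 94, 74 (78.7%) met this for no class, 18 for 1 class and 2 for more than 1; of the shallower other cells 79.9% met it for none. Stem cell niche markers met it in 6 members (6.38%), against 1.43% of other cells; after thinning to 2000 UMIs it was 1.11% of members against 0.399% of other cells, which rests on 1 member. Ground tissue regulators met it in 5.32% of members and 0.891% of other cells, and after thinning in 1.11% and 0.116%, again 1 member. Phloem markers met it in 5.32% of members and 4.85% of other cells, and hair markers in 3.19% and 1.94%. After thinning, the order turned, with 0% and 3.31% for phloem and 1.11% and 1.38% for hair. Endodermis markers met it in 2.13% of members and 4.18% of other cells, and after thinning in 0% and 2.66%. Root cap, cortex, xylem and pericycle markers met it in no member, and in 1.89%, 1.83%, 2.12% and 0.690% of other cells, shares that 0 of 94 does not exclude.

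The share of members did not differ between genotypes beyond the spread of the libraries. Members made up 1.65% and 0.869% of cells in the mutant, against 0.344% and 0.968% in WT, with exact 95% intervals for counting error alone of 0.908 to 2.76%, 0.563 to 1.28%, 0.126 to 0.746% and 0.717 to 1.28% in the same order. The means were 1.26 ± 0.555% in the mutant and 0.656 ± 0.442% in WT (SD, n = 2 each; two-sided exact permutation test, p = 0.667). The smallest p that 2 against 2 libraries can give is 0.333. Mutant replicate 1 was highest and WT replicate 1 lowest, and replicates 2 of the 2 genotypes lay close together.

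Mutant replicate 1 was deepest and had the highest share, and WT replicate 2 was shallowest and had the second highest. Among cells of at least 2000 UMIs, members made up 1.71% and 1.43% in the mutant and 0.552% and 1.81% in WT. In that set WT replicate 2 was highest. When each cell of at least 2000 UMIs was thinned to 2000 UMIs, 7 of 817 and 7 of 1604 mutant cells met the rule, against 1 of 1086 and 6 of 2595 WT cells. These are 0.857% and 0.436% in the mutant and 0.0921% and 0.231% in WT, so both mutant libraries lay above both WT libraries (two-sided exact permutation test, p = 0.333, the smallest it can give). At 4000 UMIs the libraries overlapped again, with 1.31% and 0.271% in the mutant and 0.181% and 1.17% in WT. The summed level of the 9 rule genes over all cells, a measure added after the data were seen, was 0.981 and 0.558 in the mutant and 0.531 and 0.710 in WT (two-sided exact permutation test, p = 0.667).

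**Figure D4:**
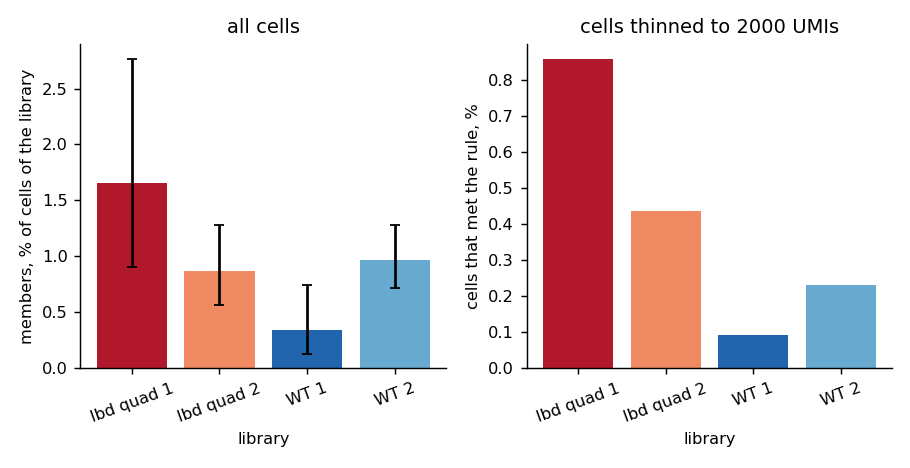
Left, members as a percentage of the cells of each library, with exact 95% binomial intervals; right, the percentage that met the rule after thinning each cell to 2000 UMIs. The mutant libraries (0.869% and 1.65%) and the WT libraries (0.344% and 0.968%) overlap on the left and do not overlap on the right, where the bars rest on 7, 7, 1 and 6 cells.

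Within members, transcripts of the 4 mutated genes were sparse. LBD12 lay at 0.152 and 0.322 in mutant members and at 1.82 and 1.00 in WT members, from 1 and 4 UMIs in the mutant and 8 and 32 in WT. Both mutant libraries were lower, as they were among other cells (0.338 and 0.141 in the mutant, 2.56 and 1.27 in WT). The log2 difference in members was -1.35 ± 0.42 (SE), which did not pass limma's adjusted p (0.999). LBD6 had 1 UMI over all members, LBD36 had 4 and LBD15 had 4, too few to compare. Since the libraries read 3′ ends, remaining transcript does not show whether the gene is intact.

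No gene passed the test between genotypes within members. limma was fitted to 2815 genes with a mean of at least 0.5 over the 4 libraries, and 0 (0%) had a Benjamini-Hochberg adjusted p under 0.05, while 70 had an unadjusted p under 0.05. The median log2 difference was -0.03. Leaving out a library gave 10 calls without mutant replicate 1, 3 without mutant replicate 2, 1 without WT replicate 1 and 3 without WT replicate 2; the arm left with 1 library was then assumed to vary like the other. With 6 members in WT replicate 1, many levels there rest on a few UMIs.

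The genes with the smallest p in each direction are given as values that did not pass. AT3G04320 lay at 0.136 and 0.340 in mutant members and at 3.84 and 2.13 in WT members (log2 difference -2.21 ± 0.40 SE; limma adjusted p = 0.999). BGLU21, a beta-glucosidase, lay at 3.82 and 0.851 in the mutant and at 9.89 and 17.1 in WT. AT3G59370 was at 0 in both mutant libraries and at 7.603 and 0.945 in WT. Each of these genes had both mutant libraries below both WT libraries, as did 15.7% of all genes tested.

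In the other direction, the glutathione transferase gene GSTU22 lay at 3.96 and 1.80 in mutant members and at 0.109 and 0.5996 in WT members (log2 difference 1.97 ± 0.46 SE; limma adjusted p = 0.999). AT2G38870 lay at 6.31 and 1.75 in the mutant and at 0.582 and 0.396 in WT. LTPG1, a lipid transfer protein of the cuticle, lay at 3.08 and 0.711 in the mutant and at 0 and 0.0818 in WT. Both mutant libraries were above both WT libraries for 12.1% of all genes tested.

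S phase histone genes, which are transcribed mainly while DNA is replicated, had lower means in mutant than in WT members, although no single gene passed the test. Their 22 genes summed to 10.0 and 9.75 in mutant members and 24.04 and 25.03 in WT members. Other cells showed no such split, with 30.1 and 32.0 in the mutant and 31.1 and 25.7 in WT. All 15 histone genes tested had a lower mean in mutant members, with a median log2 difference of -0.82 beside -0.03 over all genes tested. In 11 of the 15 (73.3%) both mutant libraries were below both WT libraries, beside 15.7% of all genes. The 15 genes were measured in the same cells, so they are not 15 separate observations. By unadjusted p under 0.05 there were 5, and the smallest adjusted p was 0.999.

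The clearest were 2 genes that encode histone H3.1. AT5G65360 lay at 0.943 and 0.618 in mutant members and at 3.16 and 2.55 in WT members, with a log2 difference of -1.39 ± 0.37 (SE). AT1G09200 lay at 0.884 and 0.886 in the mutant and at 2.54 and 2.16 in WT. Histone genes have near-identical copies, so the split of reads among them is uncertain. HTB11, a histone H2B gene, lay at 0.919 and 1.18 in the mutant and at 0.832 and 1.40 in WT and did not follow the others.

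Cell by cell, this difference came from a minority of members rich in histone transcripts. The median was 7.89 and 6.73 in mutant members and 15.2 and 9.09 in WT members, much closer than the means. At a level of 30 UMIs per 10000, chosen after the values were seen, 0 of 14 and 1 of 25 mutant members were at or above it, against 1 of 6 and 18 of 49 WT members. These are 0% and 4% in the mutant and 16.7% and 36.7% in WT. Of other cells, 22.6% and 20.7% in the mutant and 21.6% and 19.0% in WT were at or above this level, so it is not rare outside members. Only 1 member lay between 25 and 35. Without the highest cell of each library the means were 9.11 and 8.22 in the mutant and 12.1 and 23.7 in WT, so the value of WT replicate 1 rests on 1 cell and the histone-rich members come almost all from WT replicate 2.

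The 20 histone-rich members had a median of 15.8 UMIs per 10000 of the 53 other mitotic genes, against 37.9 in the other 74 members. Their replication list had a median of 7.61, against 2.32. Their median depth was 10372 UMIs, against 7858 UMIs, and both sets had a median of 5 rule genes. These medians pool the libraries. Of the 20 histone-rich members 18 came from WT replicate 2, where the median of the mitotic genes over all members was 26.9. The other 74 held all 14 members of mutant replicate 1, where it was 65.5. How far library make-up sets the gap was not tested. No member was above the 95th percentile of histone level of its own library. Whether any histone-rich member is a doublet of 2 cells was not tested.

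**Figure D5:**
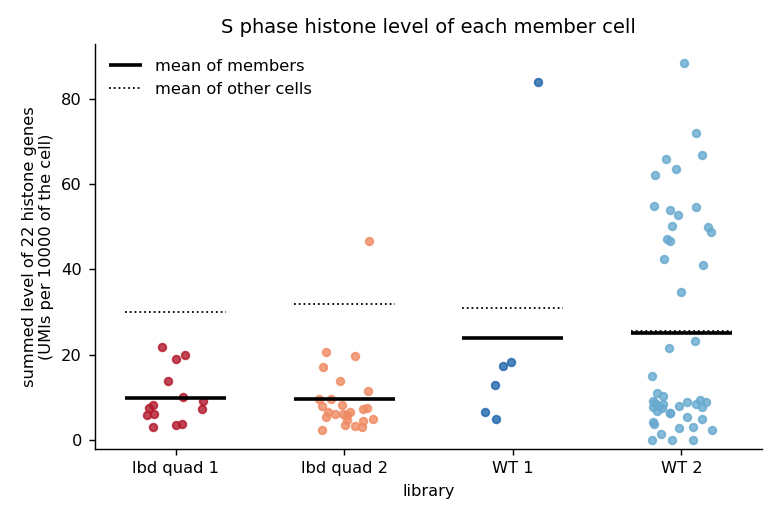
Summed level of 22 S phase histone genes (UMIs per 10000) in each member cell by library, with a thick line at the mean of members and a dotted line at the mean of other cells. In the mutant 38 of the 39 members lie under 30; in WT replicate 2 the members fall into a low and a high set, with 18 of 49 at or above 30.

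The 53 other mitotic genes went the other way, but through 1 library. Of 27 tested, 23 had a higher mean in mutant members, with a median log2 difference of 0.41, and in 8 (29.6%) both mutant libraries were above both WT libraries, beside 12.1% of all genes. None passed the test and none had an unadjusted p under 0.05. Without mutant replicate 1, 13 of 23 were higher and the median was 0.07. That library's members had a median of 65.5 UMIs per 10000 of these genes, against 32.0 in mutant replicate 2 and 26.1 and 26.9 in WT.

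Whether the effect of genotype differed between members and other cells was tested by the log2 level of members minus that of other cells in each library. Of 4039 genes 1 passed (0.0248%; limma, Benjamini-Hochberg adjusted p under 0.05), and 205 had an unadjusted p under 0.05. AT3G06460, of the ELO family of fatty acid elongases, was at 0 and 0.0213 in mutant members and at 0 and 0 in WT members, while other cells held 0.128 and 0.0176 in the mutant and 4.57 and 3.46 in WT. The fitted difference was 3.00 ± 0.55 (log2, SE; limma adjusted p = 0.0200). With members at the floor in both genotypes, this value restates the difference among other cells, and no effect of genotype in members could be measured. The call was lost in 9 of the alternatives, among them leaving out either mutant library and setting members against other cells of at least 5000 UMIs. Without WT replicate 2 the count of calls was 49, against 39 without mutant replicate 2, 2 without WT replicate 1 and 0 without mutant replicate 1.

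AT5G55110 and EXPA17, an expansin that loosens cell walls, had the next smallest p and did not pass (limma adjusted p = 0.447). EXPA17 lay at 0 and 0 in mutant members and 0.245 and 0.0186 in WT members, while other cells held 0.320 and 0.206 in the mutant and 7.53 and 1.87 in WT. AT5G55110 had no UMI in members, so for both genes too the fitted difference is set by the other cells. In the negative direction CYP715A1, a cytochrome P450, AR781 and AT1G47130 had the smallest p, each with a high value in WT replicate 1, the library with 6 members. CYP715A1, for one, lay at 0 and 0 in mutant members and at 3.30 and 0 in WT members. Of the 18 histone genes in this test 17 had a negative difference, with a median of -0.84 beside -0.05 over all genes, and none passed.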

How the data were processed

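The authors deposited 1 matrix of 20578 genes by 13844 cells, made with Cell Ranger 7.0.1 and Seurat per the submitters' processing notes; the genome build is not given in the sources used here. Its deposited values are natural log values, ln(1 + UMIs per 10000 of the cell), tested on the file: every cell sums to 10000 after reversal, and 100% of values gave whole UMIs within 0.01. Cells kept in the file had 562 to 24898 UMIs; 3315 columns that match no sample here were not used. No further cell filter was applied; the sources used here are silent on doublet removal.

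Library means over member cells were tested with limma 3.58.1 (R 4.3.3) on log2(mean + 0.5), with a trend, for genes with a mean of at least 0.5, and p-values were adjusted by Benjamini-Hochberg over all genes tested. The script was tested on simulated data. Shares used exact permutation tests over the 4 libraries. Members against other cells is a description. Members, lists and the rule for named genes (the 9 rule genes, the 4 mutated genes, 15 leading and 5 low genes, 3 smallest p each way, and up to 4 per list) were chosen with earlier results of these data known; histone-rich members, and genes named beyond this rule, were chosen after their values were seen. Symbols were matched by locus to RefSeq, which held 20511 of the identifiers. Depth per cell limits which rule genes are seen, so thinning to 2000 UMIs was used; intervals cover counting error only. Alternatives covered the low-value filter, pseudocount, scaling, averaging, rule threshold, depth, each library left out and a replicate block.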

Additional observations from a re-analysis of the deposited data

Results flagged for a closer look

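AT3G06460 was the 1 gene past the threshold in the test of members minus other cells, with a fitted difference of 3.00 on the log2 scale (limma adjusted p = 0.0200). Members had almost no transcript of it in either genotype, so the value restates a genotype difference among other cells, and no effect in G2 and mitosis cells could be measured. The fitted difference stayed positive over all alternatives run, from 2.306 to 4.778, and the cause was not tested. Groups of 2 libraries are too small to look for single outlying libraries.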

How the results depend on the processing

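The share of members was higher in the mutant under every alternative run (0.213 to 0.999 percentage points when 1 library was left out, and 0.275 to 0.695 for cells thinned to 2000 UMIs), and no test of it could pass. The difference was 0.606 percentage points as reported and 0.392 among cells of at least 2000 UMIs; for thinned cells it was 0.485 at 2000 UMIs, 0.105 at 1000 UMIs and 0.116 at 4000 UMIs. The count of genes that differed between genotypes within members was 0 as reported and 15 with no filter on low values; with 1 library left out it ran from 1 to 10. The count of genes whose genotype effect differed between members and other cells was 1 as reported. It was 0 with no filter on low values, with a pseudocount of 0.1, with UMIs summed over cells, with at least 3 or at least 5 rule genes, with members of at least 15000 UMIs left out, and against other cells of at least 5000 UMIs, a setting chosen after seeing the data; with 1 library left out it ran from 0 to 49. The cause was not tested. Replicates share only a number: deviations of same-numbered libraries from their group means correlated at 0.232 in members, which with 2 pairs is 1 value. With the replicate block the second count was 23, which included 2 of the 18 histone genes tested (smallest limma adjusted p = 0.0389), and the first stayed at 0. For the 12 named genes of both fits no direction changed. Of the alternatives of these genes 120 kept the same side of the threshold, 22 passed it and 9 lost it; the 9 were all for AT3G06460, whose limma adjusted p ran from 1.093e-05 without WT replicate 2 to 0.9985 without mutant replicate 1, against 0.0200 as reported. Histone genes within members had 14 of 15 lower with median-of-ratios scaling, 16 of 17 without mutant replicate 1, 8 of 9 without WT replicate 2 and 9 of 12 among members chosen after thinning to 2000 UMIs, where the median of all genes was 0.27. Members number 6 to 49 per library, which limits every level in them.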
